A study of Rattus norvegicus and Mus musculus with 24 samples.

Results

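The transcripts of 10 genes were followed through bulk RNA sequencing libraries of mouse and rat kidney, namely the kinase complex mTORC1, its upstream switch and its best known direct targets. The 10 members were the core subunits MTOR, RPTOR and MLST8, the activating GTPase RHEB, the TSC subunits TSC1 and TSC2, the inhibitor and substrate AKT1S1, the substrates EIF4EBP1 and RPS6KB1, and RPS6, the ribosomal protein phosphorylated by the kinase that RPS6KB1 encodes. They were taken by symbol, and all 10 were found among the 17376 symbols of the mouse table and the 14931 of the rat table. The libraries came from 4 Ctns KO and 4 Ctns WT mice (C57BL/6 background) as well as 16 rats (Sprague-Dawley background, 8 of each genotype), 1 library per animal, and controls were littermates. Ctns encodes the lysosomal cystine transporter, and its loss causes cystine storage. The rats carry the numbers 17 to 24 and 25 to 32, each range with 4 animals of each genotype, and the labels do not say what separates the ranges. The labels name kidney cortex, proximal tubule cells and dissected proximal tubules for all 24 libraries, and give neither age, sex, any treatment nor which part of Ctns the alleles remove. The paper's methods name kidney cortex as the source of the sequenced RNA in both species.

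mTORC1 is a kinase complex that works at the lysosome surface, where it senses amino acids through the Rag GTPases and growth factors through RHEB. The TSC complex keeps RHEB in its inactive state. Active mTORC1 phosphorylates the translation repressor made from EIF4EBP1 and the S6 kinase made from RPS6KB1, and this control acts on proteins, so transcript levels do not measure the activity of the complex. In the proximal tubule, the pathway is known for balancing growth against the absorptive function of the epithelium.

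In the mouse, 0 of the 10 transcripts passed the limma test between Ctns KO and Ctns WT kidneys, where 4.32% of all symbols did. In the rat, MTOR fell to 0.802-fold and EIF4EBP1 rose 1.65-fold in Ctns KO over all 16 animals, where 27.5% of symbols passed. Both differences were larger in rats 25 to 32, where TSC1 also fell, to 0.616-fold, and RPS6 rose by 0.59 on the log2 scale on few reads. In rats 17 to 24, 0 of the 10 passed the test, where 7.26% of symbols did, and in rats 25 to 32 43.8% did.

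The upstream sequences of rat members are shown because MTOR and TSC1 fell in the same animals and because RHEB and AKT1S1 hold a motif of lysosomal genes. Promoters of 8 of the 10 members were found in RefSeq (GRCr8), and RPTOR and EIF4EBP1 had no entry. The 250 bases before each annotated start were searched on both strands for the core of the CLEAR element (GTCACGTG, bound by TFEB), the CCAAT box (CCAAT), the ATF4 motif (TGATGNAA) and the GC box (GGGCGG), and no match overlapped another. Capitals mark the CCAAT box, read as ATTGG on the opposite strand, in MTOR, and the CLEAR core in RHEB and AKT1S1, while in TSC1 none of these motifs was matched.
MTOR upstream, chr5:164167735-164167984, plus strand: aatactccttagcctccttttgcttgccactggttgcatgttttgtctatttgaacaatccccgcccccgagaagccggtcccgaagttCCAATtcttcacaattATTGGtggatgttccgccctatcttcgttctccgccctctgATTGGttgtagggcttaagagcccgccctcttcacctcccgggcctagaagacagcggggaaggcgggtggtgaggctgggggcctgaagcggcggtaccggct
TSC1 upstream, chr3:32367447-32367696, plus strand: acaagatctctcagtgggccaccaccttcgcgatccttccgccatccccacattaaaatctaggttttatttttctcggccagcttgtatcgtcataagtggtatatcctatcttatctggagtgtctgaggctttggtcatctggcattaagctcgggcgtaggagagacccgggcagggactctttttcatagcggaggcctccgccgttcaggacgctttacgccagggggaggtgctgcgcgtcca
RHEB upstream, chr4:11013133-11013382, plus strand: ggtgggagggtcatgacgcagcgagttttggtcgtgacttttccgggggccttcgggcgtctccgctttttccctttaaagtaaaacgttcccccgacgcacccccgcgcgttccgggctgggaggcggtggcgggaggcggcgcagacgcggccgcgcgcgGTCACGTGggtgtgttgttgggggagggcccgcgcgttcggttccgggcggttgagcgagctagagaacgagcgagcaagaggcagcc
AKT1S1 upstream, chr1:104469586-104469835, plus strand: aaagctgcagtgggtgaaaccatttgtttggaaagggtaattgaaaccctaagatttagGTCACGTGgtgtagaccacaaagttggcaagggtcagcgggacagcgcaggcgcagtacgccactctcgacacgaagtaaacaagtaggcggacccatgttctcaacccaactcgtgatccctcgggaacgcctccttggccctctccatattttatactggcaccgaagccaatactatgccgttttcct

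The CLEAR core began 88 bases before the start in RHEB and 191 bases before it in AKT1S1, and it was present in 1.63% of the 33469 rat windows of this length. MTOR held 3 CCAAT boxes and 4 GC boxes, motifs present in 34.0% and 30.5% of all windows. The ATF4 motif, present in 3.40% of windows, was matched in 0 of the 8 members. These matches describe letters in a window, and no factor binding was measured.

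The targeted gene was read first. In the mouse, CTNS had scaled values of 0.824, 1.03, 0.878 and 0.944 in Ctns WT and of 0.342, 0.338, 0.319 and 0.331 in Ctns KO, where a value of 1 is the 75th percentile of a library. The groups did not overlap, and the mean in Ctns KO was 0.362 of that in Ctns WT. In the rat, CTNS ran from 19.2 to 27.8 CPM (reads scaled to a common library size, normalised between libraries by the TMM method) in Ctns WT, with a mean of 22.3, and from 16.8 to 22.2 in Ctns KO, with a mean of 19.1. These groups overlapped (log2 fold change -0.22, SE 0.08, edgeR adjusted p = 0.0511), and the transcript does not separate the rat genotypes, whose labels are used as given. The call was passed with DESeq2 (adjusted p = 0.0402), after adding number range to the model (0.0251) and in 5 of 16 fits that left out 1 rat, and the change differed between the species (2.42-fold between the rat and mouse fold changes by edgeR on reads, adjusted p = 3.83e-06).

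Total reads on genes ran from 19309371 to 44449845 per mouse and from 24684097 to 40629873 per rat. Markers of other kidney and immune cells were present in both tables, so the labelled proximal tubule cells were not the only cells in the libraries, and fewer cells of a type cannot be told apart from less RNA per cell. All 8 proximal tubule markers were measured in the mouse and 6 of 8 in the rat. No measured marker was at 0 reads in every library of a species, and single libraries at 0 were not counted. Summed macrophage markers (6 of 6 measured) were 2.21 to 2.43 in Ctns WT and 3.33 to 3.93 in Ctns KO mice on the scaled values. In rats 17 to 24 the same sum was 80.5 to 104 CPM in Ctns WT and 129 to 146 in Ctns KO, and in rats 25 to 32 it was 119.9 to 146 and 255 to 357. The summed proximal tubule markers were 9653 to 11636 CPM against 8237 to 8573 in rats 17 to 24 and 11831 to 13301 against 6223 to 7450 in rats 25 to 32. In mice they were 329.4 to 423.8 against 309.1 to 329.6 on the scaled values, and these ranges just overlapped. Summed fibroblast markers (4 of 4 measured) were 2.11 to 2.703 against 4.06 to 4.46 in mice, 163 to 173 against 209.7 to 303 CPM in rats 17 to 24 and 163 to 179 against 360.1 to 404 in rats 25 to 32. In rats 25 to 32, lymphocyte markers (6 of 6) summed to 6.02 to 8.44 against 12.9 to 16.4 CPM, and markers of the loop, distal tubule and collecting duct (3 of 6) to 2822 to 3486 against 3946 to 4782. In rats 17 to 24, lymphocyte sums (6 of 6) were 3.66 to 5.64 against 6.70 to 8.74 CPM. Endothelium sums (3 of 4) were 280 to 293 against 263 to 276 CPM there. In rats 25 to 32 they were 236 to 248 against 181 to 203. In mice, endothelium sums (4 of 4) were 6.75 to 7.76 against 6.06 to 6.68. The mouse sums of loop, distal tubule and collecting duct (6 of 6) were 167 to 197.5 against 197.6 to 221. The macrophage, fibroblast, lymphocyte, endothelium and proximal tubule sums moved with genotype in both rat ranges. The part of any of these sums in the results was not tested.

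Levels were compared between members per kilobase of exonic length in the mouse, with the exons of all annotated transcripts of a gene merged. The order rests on this length, and which transcripts were expressed was not tested. RPS6 was the highest in Ctns WT, at 1.22 ± 0.0613 scaled value per kilobase (SD, n = 4), although its values were not all whole reads. AKT1S1 (0.471 ± 0.0460) and MTOR (0.421 ± 0.0330) followed, with overlapping ranges. TSC2, RHEB, EIF4EBP1 and TSC1 came next, each overlapping its neighbour, from 0.210 ± 0.0176 down to 0.137 ± 0.0229. MLST8 stood at 0.102 ± 0.00589, and RPS6KB1 (0.0867 ± 0.00761) and RPTOR (0.0768 ± 0.00624) were lowest, with overlapping ranges. The order was the same in Ctns KO.

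The comparison of Ctns KO with Ctns WT mice asks whether cystine storage goes with a change in the transcripts of the pathway. MTOR, the catalytic kinase (mm10, chr4:148448611-148557683), had scaled values of 3.91, 4.71, 4.22 and 4.16 in Ctns WT and 4.33, 4.44, 4.42 and 4.66 in Ctns KO. The ranges overlapped, and both the highest and the lowest value were those of Ctns WT mice. EIF4EBP1, the repressor of cap-dependent translation (chr8:27260329-27276674), was at 0.405, 0.347, 0.390 and 0.355 in Ctns WT and at 0.378, 0.413, 0.386 and 0.355 in Ctns KO, again overlapping. TSC1, the stabilising subunit of the TSC complex (chr2:28641228-28691167), was at 1.34, 1.99, 1.55 and 1.62 in Ctns WT and 1.64, 1.65, 1.49 and 1.60 in Ctns KO. Its Ctns WT values spread more widely than its Ctns KO values, and the ranges overlapped.

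The other members overlapped between the mouse genotypes as well. The scaffold RPTOR (chr11:119602905-119899576) had means of 1.04 ± 0.0840 in Ctns WT and 1.04 ± 0.0486 in Ctns KO (SD, n = 4 each). MLST8, which stabilises the kinase (chr17:24473551-24479078), had 0.454 ± 0.0261 and 0.455 ± 0.0234. RHEB, the GTPase that activates the complex (chr5:24802823-24842624), had 1.47 ± 0.0901 and 1.43 ± 0.0708. The means of these genes differed by less than 1 SD between the genotypes. TSC2, the GTPase-activating subunit that acts on RHEB (chr17:24595816-24632630), had 2.02 ± 0.169 and 2.09 ± 0.0863, and AKT1S1, which encodes PRAS40 (chr7:44848991-44855421), had 1.45 ± 0.141 and 1.36 ± 0.110. RPS6KB1, the S6 kinase gene (chr11:86498871-86544805), had 0.751 ± 0.0659 and 0.774 ± 0.0295, and RPS6 (chr4:86854660-86857412) had 1.93 ± 0.0972 and 1.97 ± 0.0901.

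Of all mouse symbols, 4.32% passed the test (609 higher and 142 lower in Ctns KO), while 0 of the 10 members did with limma, 0 had an unadjusted p under 0.05, and edgeR and DESeq2 on recovered reads called 0. Groups that did not overlap were found for 0 of the 10, against 11.6% of symbols. On log2(CPM + 1), which changes both the scaling and the weight of the added 1, the split over all symbols was 992 higher and 53 lower. The median log2 fold change of the members was 0.01, against 0.00 over all symbols, and single members ran from -0.05 for AKT1S1 to 0.06 for MTOR on the log2(value + 1) scale. Adding 1 compresses changes at values near those of the members, so the fit to recovered reads is given beside it. There the log2 fold changes ran from -0.11 for AKT1S1 (95% interval -0.28 to 0.06) to 0.05 for MTOR (-0.09 to 0.20), and that of EIF4EBP1 was 0.01 (-0.17 to 0.19). The widest interval was that of TSC1, from -0.25 to 0.17.

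**Figure D1:**
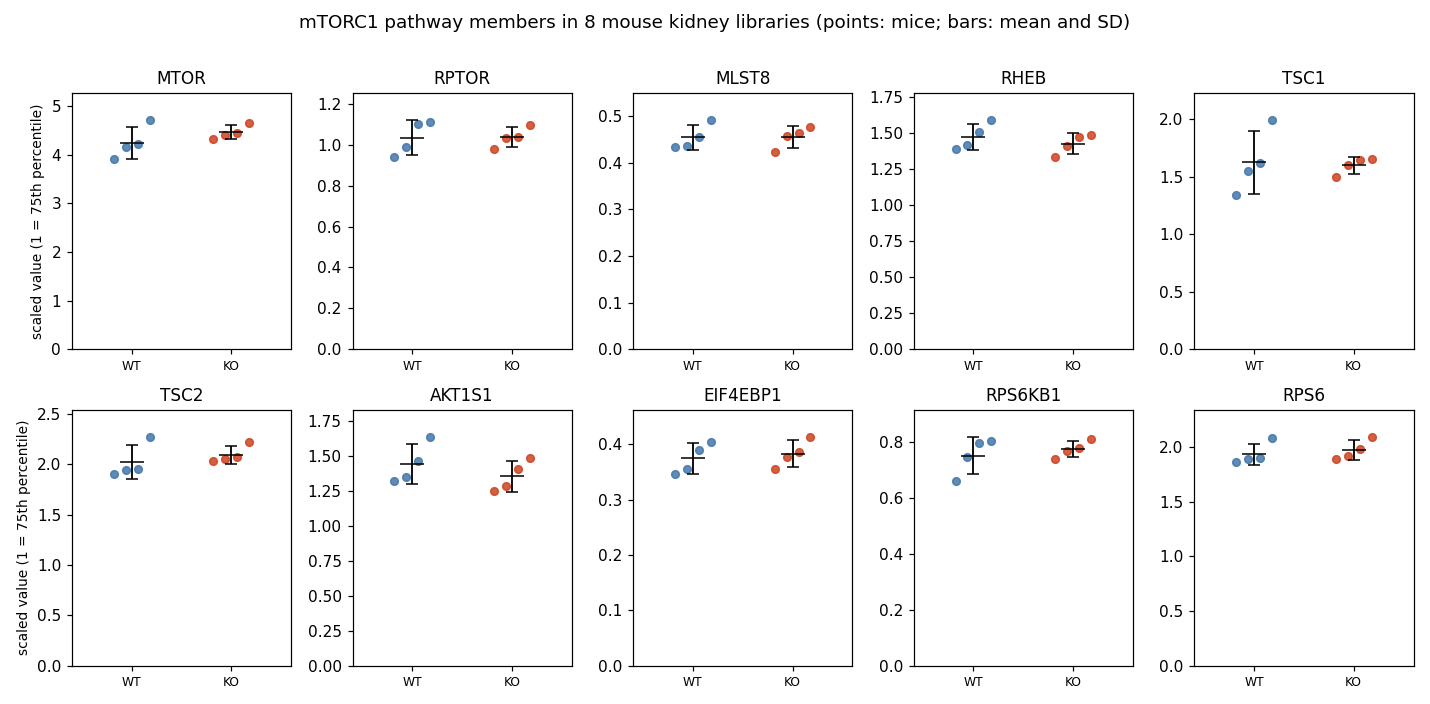
Scaled value (1 is the 75th percentile of a library, linear axis from 0) of each member in every mouse, with Ctns WT in blue and Ctns KO in red. Points are mice and bars give mean and SD (n = 4). The genotypes overlap in all 10 panels.

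The same comparison in the rat used all 16 animals. MTOR ran from 101 to 149 CPM in Ctns WT, with a median of 122, and from 91.3 to 107 in Ctns KO, with a median of 99.2. All but 2 of the Ctns KO values lay below every Ctns WT value, and MTOR fell by 0.32 on the log2 scale (SE 0.07, edgeR adjusted p = 0.00351). EIF4EBP1 ran from 6.38 to 9.99 CPM in Ctns WT, with a median of 8.76, and from 9.70 to 20.2 in Ctns KO, with a median of 13.2. Only the lowest Ctns KO value lay inside the Ctns WT range, and EIF4EBP1 rose by 0.72 (SE 0.15, adjusted p = 0.00179). These were 2 of the 10 members, 1 in each direction, where 27.5% of the 11584 symbols tested passed (15.2% higher and 12.3% lower).

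The other 8 rat members did not pass over all 16 animals. TSC1 had a log2 fold change of -0.34 (95% interval -0.63 to -0.04, adjusted p = 0.0855), which passed in the fit without Ctns KO rat 24 (adjusted p = 0.0455), and RPS6 had 0.34 (0.02 to 0.66, adjusted p = 0.104). RPTOR was at -0.07, RPS6KB1 at -0.03, AKT1S1 and TSC2 at -0.01, MLST8 at 0.06 and RHEB at 0.07. The intervals of these 6 genes lay between -0.22 and 0.18. Adding the number range to the model left MTOR at -0.31 and EIF4EBP1 at 0.70, both past the threshold.

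**Figure D2:**
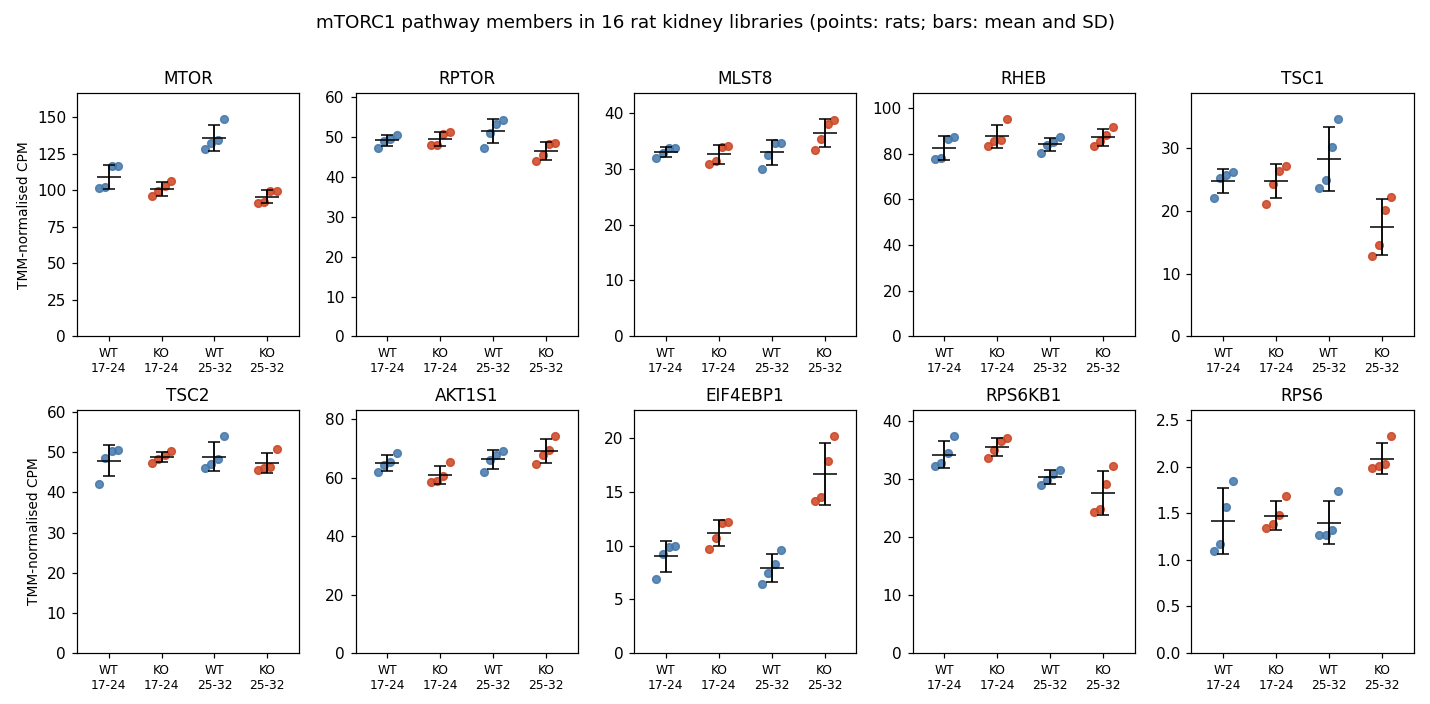
TMM-normalised CPM (linear axis from 0) of each member in every rat, by genotype (Ctns WT blue, Ctns KO red) and number range. Points are rats and bars give mean and SD (n = 4). In rats 25 to 32 the genotypes are apart for MTOR, TSC1, EIF4EBP1 and RPS6, and in rats 17 to 24 they overlap in all 10 panels.

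In rats 17 to 24, MTOR was at 101, 102, 116 and 117 CPM in Ctns WT and at 95.7, 99.2, 103 and 107 in Ctns KO. The Ctns KO values reached into the Ctns WT range, and the log2 fold change was -0.10 (SE 0.06, adjusted p = 0.388). EIF4EBP1 was at 9.99, 9.26, 9.90 and 6.91 CPM in Ctns WT and at 12.1, 12.2, 10.7 and 9.70 in Ctns KO. The lowest Ctns KO value lay below the highest Ctns WT value (log2 fold change 0.32, SE 0.13, adjusted p = 0.160). TSC1 was at 22.1, 25.8, 25.3 and 26.2 CPM in Ctns WT and at 21.1, 24.4, 26.4 and 27.2 in Ctns KO, and the groups covered nearly one range. In this range 7.26% of symbols passed, while 0 of the 10 members did with edgeR and 0 with DESeq2, and 1 had an unadjusted p under 0.05. The members ran from -0.10 for MTOR to 0.32 for EIF4EBP1 on the log2 scale, and 0 of the 10 were apart between the genotypes, where 13.7% of symbols were.

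In rats 25 to 32, MTOR was at 128, 149, 132 and 134 CPM in Ctns WT and at 99.2, 91.3, 99.5 and 91.8 in Ctns KO. Every Ctns KO value lay below every Ctns WT value, and MTOR fell by 0.51 on the log2 scale (SE 0.07, edgeR adjusted p = 0.000189). TSC1 was at 30.2, 34.7, 24.9 and 23.6 CPM in Ctns WT and at 20.1, 14.6, 22.2 and 12.8 in Ctns KO. The groups were apart by a narrow gap, from 22.2 to 23.6, and TSC1 fell by 0.70 (SE 0.19, adjusted p = 0.0117). EIF4EBP1 was at 7.44, 6.38, 9.57 and 8.26 CPM in Ctns WT and at 14.2, 20.2, 14.6 and 17.9 in Ctns KO. All Ctns KO values lay above the Ctns WT values, and EIF4EBP1 rose by 1.08 (SE 0.15, adjusted p = 0.000283), which is 2.12-fold (95% interval 1.68 to 2.67).

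RPS6 was at 1.26, 1.27, 1.32 and 1.74 CPM in Ctns WT and at 2.33, 2.01, 2.03 and 1.98 in Ctns KO of rats 25 to 32. The groups were apart, and RPS6 rose by 0.59 (SE 0.17, adjusted p = 0.0183). This call rests on 34 to 74.5 reads per library, and it was lost without Ctns WT rat 25 (adjusted p = 0.0504) or Ctns WT rat 27 (0.0515). RPS6 was the single member whose values were not whole reads in both tables, and in the rat it averaged 47.8 reads where the 76 ribosomal protein symbols had a median of 5416. Ribosomal protein genes have many near-identical copies in the genome, and whether reads were shared with such copies was not tested, so the RPS6 value is given as uncertain.

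These 4 of the 10 members, 2 in each direction, stand beside 43.8% of the 11633 symbols tested in rats 25 to 32 (21.8% higher and 22.1% lower), and the 4 that were apart between the genotypes beside 40.3%. The share of members called was near that of all symbols. The median log2 fold change of the members was 0.00, against -0.01 over all symbols. Among the members not called, RPTOR was at -0.14 (95% interval -0.30 to 0.01) and passed only without Ctns WT rat 31 (adjusted p = 0.0489), RPS6KB1 was at -0.13 (-0.35 to 0.09) and MLST8 at 0.15 (-0.02 to 0.31). TSC2 (-0.05), RHEB (0.05) and AKT1S1 (0.06) were nearest to 0. Scaling by library totals in place of TMM moved all changes in rats 25 to 32 up by 0.16 on the log2 scale. This is more than the falls of RPTOR, RPS6KB1 and TSC2, so their sign rests on not scaling by library totals. With DESeq2 size factors the shift was 0.004, and these falls kept their sign. The upward shift was 0.09 over all rats, more than the falls of RPTOR, RPS6KB1, AKT1S1 and TSC2 there. It was 0.02 in rats 17 to 24. In mice, library totals in place of the scaling of the deposited values moved changes up by 0.07. The rat values here are relative to TMM.

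**Figure D3:**
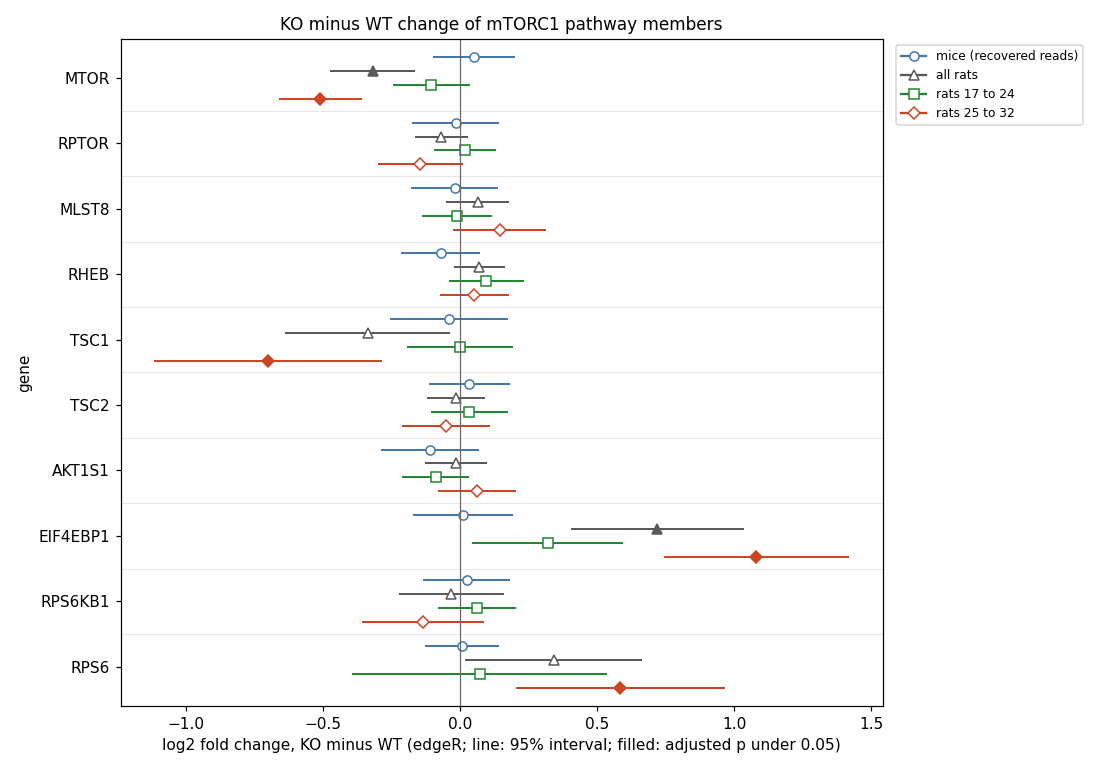
Log2 fold change, Ctns KO minus Ctns WT, of each member in mice (edgeR on recovered reads), all rats, rats 17 to 24 and rats 25 to 32. Lines are 95% intervals and filled symbols passed the adjusted threshold of 0.05. Filled symbols stand at MTOR and EIF4EBP1 for all rats and at MTOR, TSC1, EIF4EBP1 and RPS6 for rats 25 to 32.

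Whether the change with genotype differed between the ranges was tested as an interaction. The difference, rats 25 to 32 minus rats 17 to 24, was -0.40 on the log2 scale for MTOR (SE 0.09, edgeR adjusted p = 0.00841), -0.70 for TSC1 (SE 0.22, adjusted p = 0.0408) and 0.77 for EIF4EBP1 (SE 0.21, adjusted p = 0.0224). These 3 of 10 members, 1 positive and 2 negative, stand beside 14.7% of the 11839 symbols tested (7.10% positive and 7.64% negative). The call of TSC1 was lost in 10 of the 16 fits that left out 1 rat (Ctns WT 17, 19, 21, 25 and 27 and Ctns KO 20, 22, 24, 28 and 32; adjusted p from 0.0588 to 0.0913 in them), and that of EIF4EBP1 without Ctns KO rat 28 (adjusted p = 0.0564). MTOR passed in all 16. RPS6 had a difference of 0.52 (95% interval -0.03 to 1.06), which did not pass.

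The ranges were also compared with genotype in the fit. RPS6KB1 was at 32.2 to 37.4 CPM in Ctns WT and 33.5 to 37.0 in Ctns KO among rats 17 to 24, and at 28.9 to 31.6 and 24.2 to 32.2 among rats 25 to 32. In both genotypes the rats 25 to 32 lay below the rats 17 to 24 (log2 difference -0.27, SE 0.06, adjusted p = 0.00261). It was the 1 member of 10 that passed, where 41.0% of symbols did (18.7% in the lower direction). AKT1S1 had a difference of 0.10 (adjusted p = 0.0690), which passed without Ctns WT rat 17 or 27, and RPS6 had 0.25 (adjusted p = 0.157), which passed without Ctns WT rat 17. MTOR had a difference of 0.12 (adjusted p = 0.167), made of a higher mean in Ctns WT (136 against 109 CPM) and a lower one in Ctns KO (95.4 against 101).

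The change in the rat was then set against that in the mouse, over the 14264 symbols common to both tables, after giving rat libraries the same 75th percentile scaling. With limma, 0 of the 10 members passed, 3 had an unadjusted p under 0.05, and edgeR on the reads of both species called 0, where 4.02% of symbols passed. MTOR had the largest difference of the members by limma (-0.25, 95% interval -0.41 to -0.09, adjusted p = 0.0739), and it passed without Ctns WT mouse 2, Ctns WT rat 17 or Ctns WT rat 19 (adjusted p of 0.0329, 0.0346 and 0.0355). EIF4EBP1 had 0.13 (0.03 to 0.23, adjusted p = 0.144) by limma and 0.72 (0.28 to 1.17, adjusted p = 0.0728) by edgeR on reads. A difference between the species in these genes was therefore not shown, although only the rat passed the test within a species.

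The wider pathway was read from a list of 34 further genes, of which 33 were tested in the mouse and 28 in the rat. In the mouse 1 was higher and 2 were lower with limma, where 4.32% of all symbols passed, and edgeR on recovered reads called 2 higher and 1 lower. DDIT4L, a stress-induced repressor of mTORC1, rose by 0.14 on the log2(value + 1) scale (adjusted p = 0.0468) and by 0.55 on the log2 scale by edgeR on recovered reads (adjusted p = 0.00734), while MAPKAP1, a core subunit of mTORC2, fell by 0.10 (adjusted p = 0.0179) and AKT2, a kinase that inhibits the TSC complex, fell by 0.12 (adjusted p = 0.0160). Each lost its call when single mice were left out, DDIT4L without 7 of the 8 (without Ctns KO mouse 8 it stayed), MAPKAP1 without Ctns WT 4 or Ctns KO 3, 5 or 6, and AKT2 without Ctns WT 4 or Ctns KO 5 or 6. Both lower genes also lost it where symbols with a mean value under 0.1 were dropped. On recovered reads edgeR did not call MAPKAP1 (adjusted p = 0.0517), and it called AKT2 (log2 fold change -0.20, adjusted p = 0.0365).

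Over all rats, 3 of the 28 genes rose and 4 fell with edgeR, where 27.5% of symbols passed, and DESeq2 called 3 higher and 7 lower. PDCD4, a translation inhibitor that the S6 kinase marks for breakdown, rose by 0.31 (SE 0.06, adjusted p = 0.000771). AKT1, which phosphorylates TSC2 and AKT1S1, rose by 0.23 (SE 0.06, adjusted p = 0.00662), and PRR5L, a protein bound to mTORC2, rose by 0.49 (adjusted p = 0.0257, lost without Ctns WT rat 27 at 0.0520). PRR5L had only 40 to 95 reads per library. PRR5, a subunit of mTORC2, fell by 0.38 (SE 0.09, adjusted p = 0.00392), and TTI1, part of a chaperone complex for mTOR and related kinases, fell by 0.20 (adjusted p = 0.0124). PRKAA2, a catalytic subunit of AMPK, fell by 0.60 (adjusted p = 0.0354), and EIF4EBP3, a paralog of EIF4EBP1, fell by 0.32 (adjusted p = 0.0405). The last 2 calls were lost in 9 and 11 of the 16 fits that left out 1 rat.

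EIF4EBP3 and EIF4EBP1 thus had changes of opposite sign over all rats. Reads of EIF4EBP3 ran from 12 to 40 per mouse library and from 1310 to 4207 per rat library. The cause of this gap was not tested, so the rat change of EIF4EBP3 is given with this limit. The level of EIF4EBP3 was 51.2 to 86.2 CPM in Ctns KO and 76.3 to 109 in Ctns WT, and lengths in the rat build were not used here, so its level is not ranked against that of EIF4EBP1.

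In rats 17 to 24, 0 of the 28 genes passed with edgeR, 5 had an unadjusted p under 0.05, and DESeq2 called 1, PRR5, where 7.26% of symbols passed with edgeR. In rats 25 to 32, 5 rose and 10 fell, beside 43.8% of all symbols, and the median log2 fold change of the list was -0.22, against -0.01 over all symbols. PRKAA2 fell by 1.21 (SE 0.24, adjusted p = 0.00270), EIF4EBP3 by 0.62 (SE 0.13, adjusted p = 0.00296) and PRR5 by 0.55 (SE 0.08, adjusted p = 0.000326). DDIT4L rose by 1.17 (SE 0.22, adjusted p = 0.00197), PRR5L by 0.81 (adjusted p = 0.00321), PDCD4 by 0.46 (SE 0.06, adjusted p = 0.000155) and AKT1 by 0.32 (adjusted p = 0.00236). MAPKAP1 and AKT2 fell by 0.23 and 0.24, as did TTI1 by 0.30, and the call of AKT2 (adjusted p = 0.0477) was lost without Ctns WT 25, 27 or 29 or Ctns KO 26, 28 or 32. The difference between the ranges passed for 6 of the 28 genes, 1 positive and 5 negative, where 14.7% of symbols passed. These were PRKAA2 (-1.21, adjusted p = 0.0143), EIF4EBP3 (-0.57, adjusted p = 0.0171), PRR5 (-0.36, adjusted p = 0.0256), PDCD4 (0.29, adjusted p = 0.0271) and, named after their values were seen, PDPK1 (-0.87, adjusted p = 0.0343) and EIF4G1 (-0.51, adjusted p = 0.0344). PRR5 lost this call without Ctns WT rat 19 or 29, and PDCD4 without Ctns WT 17, 19 or 27 or Ctns KO 22.

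**Figure D4:**
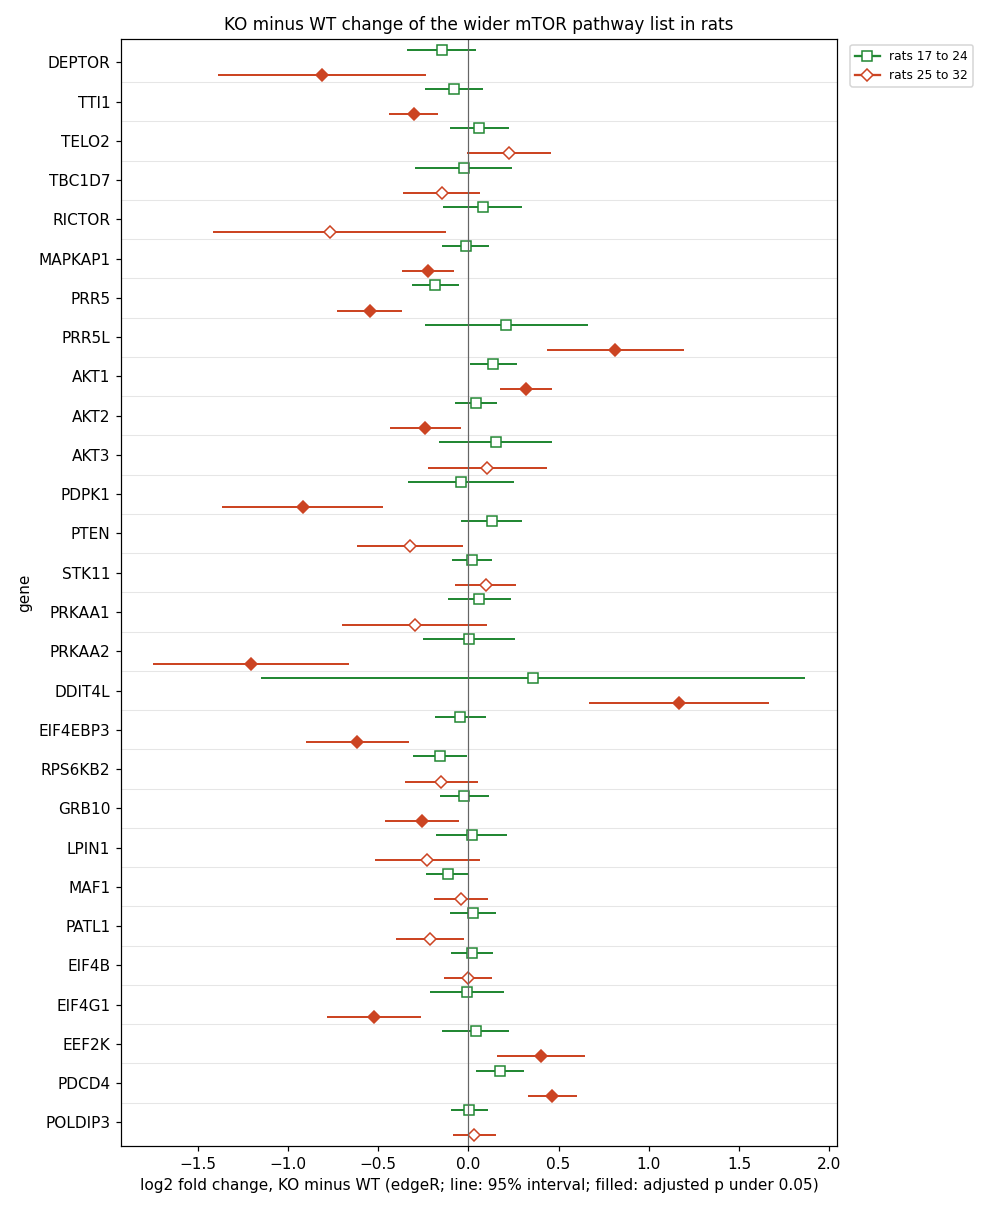
Log2 fold change, Ctns KO minus Ctns WT, of the 28 wider pathway genes tested in rats 17 to 24 (green squares) and rats 25 to 32 (red diamonds). Lines are 95% intervals and filled symbols passed the adjusted threshold of 0.05. In rats 25 to 32 there are 5 filled symbols to the right of 0 and 10 to the left of it, and in rats 17 to 24 there are 0.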

How the data were processed

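Kidney libraries of 24 animals were analysed, grouped by the genotype in their labels. The mouse file deposited by the authors holds a scaled signal per gene, which its values show to be reads plus 0.5 over the library's 75th percentile plus 0.5; reads recovered from it were whole (tolerance 0.01) for 99.0% of values. The deposited rat file holds estimated counts equal to reads plus 0.167, an offset subtracted before rounding; 97.7% were whole. The submitters' processing notes name bcl2fastq 2.20, STAR 2.7.3, DESeq2 1.24.0, R 3.6.1 and the builds mm10 and rn5, and the methods name stranded mRNA libraries. The counting and annotation are not given in the sources used here.

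Mouse values were tested with limma 3.58.1 (trend, robust) on log2(value + 1) without a filter, and rat counts with edgeR 4.0.16 (quasi-likelihood, robust, TMM, filterByExpr), in R 4.3.3, two-sided, with Benjamini-Hochberg adjustment over all symbols tested and a threshold of 0.05. Intervals are 95%. Named were all members, CTNS, and genes of the wider list past the threshold in the mouse or in all rats. The members and lists were chosen with earlier results of these data known. Simulated data held 200 genes with a 2-fold change, of which limma recovered 119 in the mouse when changed genes had at least 20 mean reads and 156 with at least 500, against 196 and 200 by edgeR on reads; the interaction between the rat ranges recovered 167 and 186. The simulation gave every gene the same set spread between animals, not one estimated from these libraries. At that setting the limma test of the mouse was the less sensitive. Depth was 19309371 to 44449845 reads per library, which limits counting error only. The p-values set the difference between groups against the spread between animals. No 2 libraries of a group were alike within sampling noise (lowest chi-square per degree of freedom 8.60). Alternatives were a pseudocount of 0.1, low-value filters, edgeR and DESeq2 1.42.0 on mouse reads, log2(CPM + 1), DESeq2 and its size factors in the rat, no filter, the number range as covariate, and leaving out each animal. Mouse positions are from GENCODE (mm10). Rat positions in rn5 were not used here.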

Additional observations from a re-analysis of the deposited data

Results flagged for a closer look

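Among 80 groups of 4 or 8 animals tested for a single far value (about 1 in 20 is found by chance), 5 had one. TSC2 was at 2.27 in Ctns WT mouse 2, where the next value was 1.96. RPS6 was at 2.08 in Ctns WT mouse 1, where the next was 1.90. TSC2 was at 50.9 CPM in Ctns KO rat 28, with the next at 46.3. RPS6 was at 1.74 CPM in Ctns WT rat 31 (next 1.32) and at 2.33 in Ctns KO rat 26 (next 2.03).

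The change with genotype differed between the rat number ranges, by the interaction test, for MTOR (-0.40 on the log2 scale), TSC1 (-0.70) and EIF4EBP1 (0.77), and in the wider list for PRKAA2 (-1.21), EIF4EBP3 (-0.57), PRR5 (-0.36) and PDCD4 (0.29). Summed macrophage markers rose from a Ctns WT median of 96.0 to 138 CPM in rats 17 to 24 and from 124 to 279 in rats 25 to 32, and their part in these differences was not tested. CTNS itself differed between the species (0.47 on the log2(value + 1) scale, rat minus mouse), with a smaller fall in the rat.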

How the results depend on the processing

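No paired analysis was possible because the labels do not say which animals were littermates. No result changed direction past the threshold under any alternative run, and counts of members moved only by leaving out animals. Symbols lower in Ctns KO mice numbered 236 with a mean value of at least 0.1, 383 by edgeR, 588 by DESeq2 and 53 on log2(CPM + 1), and those higher 930 by DESeq2 and 992 on log2(CPM + 1). Symbols lower in Ctns KO numbered 2204 over all rats with the range as covariate and 469 in rats 17 to 24 by DESeq2. For rat minus mouse they were 148 higher and 114 lower with a mean value of at least 0.1, and 100 lower by edgeR.

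Leaving out 1 animal at a time gave 297 to 587 higher and 34 to 145 lower symbols in mice, 1458 to 1977 and 966 to 1583 in all rats, 392 to 618 and 112 to 312 in rats 17 to 24, and 2145 to 2540 and 1801 to 2702 in rats 25 to 32. It gave 487 to 1025 and 523 to 1388 for the interaction, 2185 to 3010 and 1849 to 2632 for the range, and 170 to 358 and 229 to 369 for rat minus mouse. Members lower were 1 to 2 in all rats, 2 to 3 in rats 25 to 32, 1 to 2 for the interaction and 0 to 1 for rat minus mouse, and members higher were 1 to 2 in rats 25 to 32, 0 to 1 for the interaction and 0 to 2 for the range. Counts moved by over 1.5 times when mice 1, 4 and 7 (Ctns WT) or 3, 5 and 6 (Ctns KO) and rats 21 and 27 (Ctns WT) or 20, 22, 24, 28 and 30 (Ctns KO) were each left out. The cause was not tested. Depth limits RPS6 in the rat most, at 34 to 74.5 reads.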
